A study of Mus musculus with 200 samples.

Results

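The comparison was between medullary thymic epithelial cells of Aire knockout (KO) mice and of Aire wild-type (WT) mice that were sorted for high fluorescence of an Aire reporter (GFPhi). The members were the 48 cells that the labels give as KO GFPhi and the 61 given as WT GFPhi, together 109 of the 200 single cells of the series. All mice, KO and WT alike, were female, were aged 5 weeks, were of the B6xNOD strain and carried the Aire-GFP transgene, which marks cells that use the Aire promoter whether or not Aire itself is intact. All cells were sorted as CD45-, Ly51-, MHCII+ and GFPhi, and RNA was counted in 1 cell at a time. The labels name no animal and do not say how the Aire allele was disrupted.

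Medullary thymic epithelial cells show developing T cells a large set of proteins that otherwise belong to single organs, so that T cells that react to them can be deleted or diverted. Aire is the transcriptional regulator that lets these cells make many of those tissue antigens. Any one antigen is known to be made by a small minority of the cells at a time, so the loss of Aire can be described both by the number of cells that make an antigen and by the amount made.

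The 48 KO cells held 3011900 counts in all and the 61 WT cells 3468109, with per-cell totals of 6086 to 253652 (median 42732) in KO and 4676 to 370365 (median 34324) in WT. To compare detection at 1 depth, every cell was thinned at random to 10000 counts, which kept 44 KO and 55 WT cells and left out 4 KO and 6 WT cells that were shallower. Cells came from 2 sort dates, with 8 KO and 19 WT thinned cells on the first and 36 KO and 36 WT thinned cells on the second. Because no animal is named, each genotype counted as 1 sample and no difference was tested. The 95% intervals given are exact binomial intervals, or Newcombe intervals for differences in share, and cover counting error only. Cells with more counts from a leukocyte marker list than from an epithelial list numbered 9 of 48 in KO and 18 of 61 in WT. Results are also given without them for all antigens together, for some of the lists and for some genes. Median reporter fluorescence was 27667 in KO and 21656 in WT cells in arbitrary units, 22708 and 22563 on the first date and 28917 and 20952.5 on the second. The part of sort date, of leukocyte-marked cells and of reporter brightness in the differences below was not tested beyond the values given beside them.

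Transcripts of Aire were found in 36 of 44 thinned KO cells (81.8%, interval 67.3 to 91.8%) and in 50 of 55 thinned WT cells (90.9%, 80.1 to 97.0%). Per cell, the Aire level ran from 0 to 7536 counts per 1000000 (CPM) with a median of 805 in KO, and from 0 to 1817 CPM with a median of 520 in WT, so the ranges of the genotypes overlapped. Reverse transcription started from oligo dT, per the labels' protocols, and which part of the gene is missing is not given, so these counts do not check the knockout label. The keratin gene Krt8, an epithelial marker, was found in 44 of 44 KO and 54 of 55 WT cells, and H2-Aa, a chain of MHC class II, in 44 of 44 and 55 of 55. Psmb11, the proteasome subunit of cortical epithelium, was seen in 0 of 44 KO and 1 of 55 WT cells. Of 17 epithelial markers found in at least 5 thinned cells, Krt19 (0 KO and 6 WT cells) and Cldn4 (5 and 13) had a share at least 2-fold lower in KO and none one at least 2-fold higher. Over all genes that met this minimum, 16.6% were lower and 12.8% higher by that much, so these markers were not lower more often than genes at large. Epcam was found in 33 KO and 44 WT cells.

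Most KO GFPhi cells had counts of fewer different tissue antigens than most WT GFPhi cells. Of 458 antigen genes drawn from 14 organ lists, a thinned KO cell had a count of 8 to 27 with a median of 14.5, and a thinned WT cell of 10 to 57 with a median of 24. The mean was 15.5 in KO and 26.3 in WT, a ratio of 0.590. In the same cells the number of all genes with a count was 1753 to 3422 (median 2762.5) in KO and 1900 to 3310 (median 2757) in WT, with medians of 2801.5 and 2612 on the first sort date and 2721 and 2872 on the second. The genotypes overlapped in antigens per cell, but unevenly: 3 of 44 KO cells lay above the WT median, 4 of 55 WT cells lay below the KO median, and 21 WT cells lay above the highest KO cell.

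The lower number of antigens per cell was seen on both sort dates. On the first, the median was 16.5 in the 8 KO cells and 23 in the 19 WT cells (ratio of means 0.679), and on the second it was 14 in the 36 KO cells and 26 in the 36 WT cells (0.565). Of the 12 library pools, 11 held cells of both genotypes, and the KO median was lower in 10 of them and equal in 1, which had a single KO cell with 27 antigens. The pools of the first date that held KO cells had 1 or 2 of them each, and those of the second date 4 or 8. Without leukocyte-marked cells the medians were 14 in KO and 24 in WT (ratio of means 0.586). Antigens took 0.994% of the thinned counts in KO and 1.68% in WT, or 0.682% and 1.40% without the casein Csn2.

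**Figure D1:**
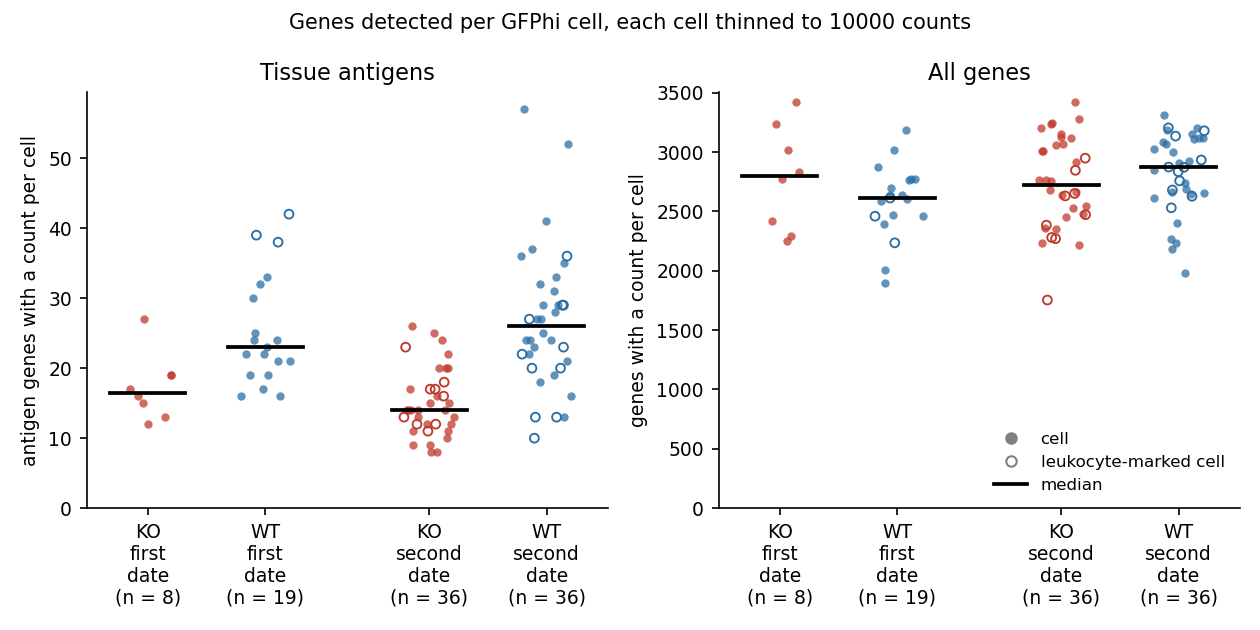
Antigen genes (left) and all genes (right) with a count per cell after thinning to 10000 counts, by genotype and sort date; each point is 1 cell, open points are leukocyte-marked cells, and bars are medians. The KO medians of antigens are 16.5 and 14 on the first and second date beside WT medians of 23 and 26, while the numbers of all genes overlap almost fully.

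The difference was larger for antigens seldom or never found in WT cells sorted for low reporter fluorescence. To sort antigens without using the compared cells, each was placed by its share among 32 thinned WT cells of low reporter fluorescence (GFPlo), a split chosen after the data were seen. By this split, antigens that few cells make cannot be told apart from antigens made mainly in GFPhi cells. The 251 antigens found in none of those cells were detected at 0 to 6 per cell (median 1) in KO GFPhi and 0 to 15 (median 4) in WT GFPhi cells, with means of 1.27 and 5.13, a ratio of 0.248. The 147 antigens found in under 10% of them had means of 4.09 in KO and 8.16 in WT, a ratio of 0.501. The 60 found in 10% or more had means of 10.2 in KO and 13 in WT, a ratio of 0.779. For all genes split the same way, the ratios were 0.858, 0.967 and 1.02. Over all thinned cells, 121 of the 458 antigens were seen in the 44 KO cells and 255 in the 55 WT cells, or 241 for an average set of 44 WT cells. For all genes the same numbers were 14026 in KO and 14979 in 44 WT cells. Of the antigens seen in KO, 101 were also seen in WT and 20 were not, while 154 were seen in WT and not in KO.

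Gene by gene, 112 of the 458 antigens had a count in at least 5 thinned cells of the pair, and 59 of these had a share of cells at least 2-fold lower in KO, while 11 had one at least 2-fold higher. Over all 11032 genes that met the same minimum, 16.6% were lower and 12.8% were higher by that much. The median log2 ratio of the share, KO over WT, was -0.94 over these antigens and -0.00 over all genes. By level, 194 antigens had at least 20 counts in the pair, of which 124 were at least 4-fold lower and 16 at least 4-fold higher in KO, against 16.2% and 8.78% of all 13564 such genes. Their median log2 level ratio was -4.22, and that of all genes was -0.10. A gene can meet these minimums through 1 genotype alone, so the counts describe the antigens that were seen often enough and give no separate support.

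Calls of this kind depend on how many cells have a gene. Of all genes found in 50% or more of the pooled thinned cells, 0.0794% met the mark of 2-fold in each direction, and of those found in under 10%, 31.6% were lower and 22.7% higher in KO. Of the 68 antigens found in under 10%, 44 (64.7%) were lower and 11 (16.2%) higher. Of the 25 antigens found in 10 to 25%, 12 were lower and 0 higher, against 727 and 613 of all 4269 genes in that range. None of the 8 antigens found in 50% of cells or more met the mark. The 16.6% and 12.8% of all genes, above and below, are not matched for the share of cells with a gene. Pooled shares hold the compared cells themselves, so a gene that KO cells lack lies in a lower range because of it.

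**Figure D2:**
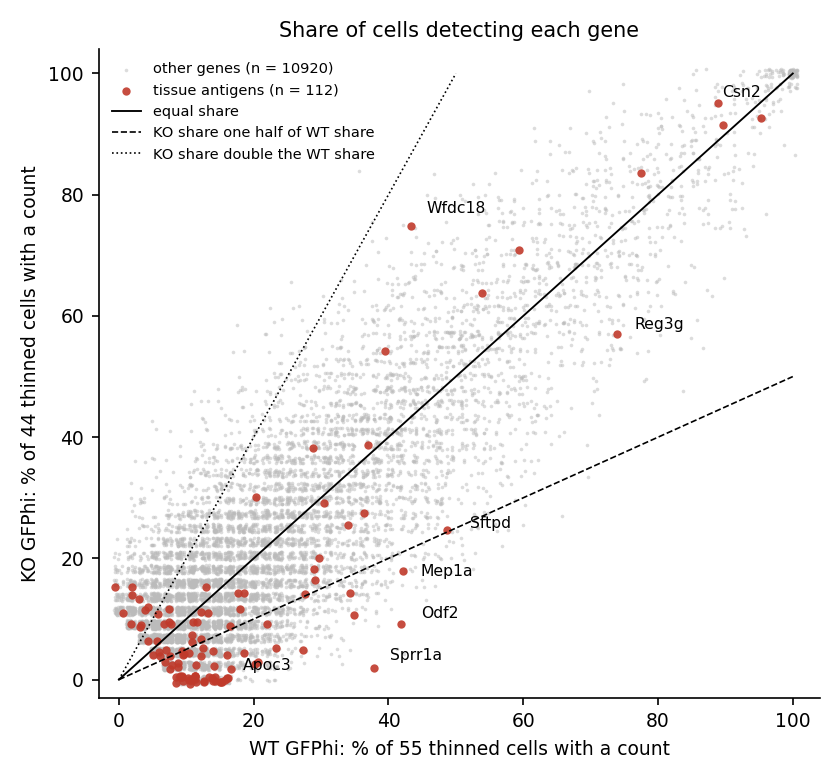
Share of thinned KO cells (y axis, % of 44) against share of thinned WT cells (x axis, % of 55) with a count of each gene found in at least 5 cells, with antigens in red and all other genes in grey; points are spread slightly to separate ties. Antigens gather below the dashed line of a 2-fold lower share at the low left, among them Apoc3 at 0% of KO cells, while Csn2 lies near the line of equal share.

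Liver products were found in fewer KO cells and seldom together. At least 1 of the 46 liver genes was found in 19 of 44 KO cells (43.2%, 28.3 to 59%) and in 46 of 55 WT cells (83.6%, 71.2 to 92.2%), and 2 or more in 4 KO cells and 27 WT cells. Members per cell were 0.252 times the WT number, 0.17 on the first date and 0.278 on the second, and 0.204 without leukocyte-marked cells. Of 13 members that could be compared by share, 9 were lower and 2 higher in KO, against the 16.6% and 12.8% of all genes. Apoc3 (chromosome 9, 46232933 to 46235636, minus strand, mm10), an apolipoprotein that slows the clearance of triglyceride-rich particles, was found in 0 of 44 KO cells, which allows a share of cells with a count of up to 6.82% by a floor of 3 cells (8.04% by the exact interval), and in 9 of 55 thinned WT cells (3 of 48 and 13 of 61 at full depth), 4 from the first sort and 5 from the second. Its level per cell reached 23.1 CPM in KO and 5582 CPM in WT, with a median of 0 in each, so most WT cells were as empty of it as KO cells. The mannose-binding lectin Mbl2 was found in 0 KO and 8 WT cells, and the acute-phase protein Saa1 in 1 and 11. Reads of Saa1 may be shared with its near copy Saa2. Prothrombin (F2) went the other way, with 7 KO cells and 1 WT cell, at 62.8 CPM in KO and 2.6 CPM in WT.

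Pancreatic products were also found in fewer KO cells, mainly on the second date. At least 1 of 39 genes was found in 28 of 44 KO cells (63.6%, 47.8 to 77.6%) and 53 of 55 WT cells (96.4%, 87.5 to 99.6%), and 2 or more in 1 KO cell and 26 WT cells. The members per cell were 0.352 times the WT number, 0.613 on the first and 0.292 on the second date. On the first date at least 1 was found in 7 of 8 KO and 17 of 19 WT cells. Ctrb1 (chromosome 8, 111686519 to 111691010, minus strand), a chymotrypsin precursor of acinar cells, was found in 0 of 44 thinned KO cells and 6 of 55 thinned WT cells (10.9%, 4.11 to 22.2%), and at full depth in 0 of 48 and 10 of 61. It had 0 counts in KO and 500 in WT, with 50% of the WT counts in 1 cell. The islet peptides Ppy and Iapp were found in 0 KO cells and in 6 and 5 WT cells, and the peptide hormone Pyy in 0 KO and 9 WT cells. Insulin (Ins2) was found in 0 KO cells and 1 WT cell, too few to compare.

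The antibacterial lectin Reg3g, made by gut and pancreas, stayed common in KO cells. It was found in 25 of 44 KO cells (56.8%, 41 to 71.7%) and 41 of 55 WT cells (74.5%, 61 to 85.3%), a difference in share of -17.7 percentage points (-35.2 to 0.908). Its median level per cell was 210 CPM in KO and 185 CPM in WT, while its highest cell reached 1601 CPM in KO and 8590 CPM in WT. The 4.29-fold lower summed level of Reg3g in KO thus went with a like median per cell, and 40.3% of the WT counts lay in 1 cell.

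Of gut products, at least 1 of 40 was found in 35 of 44 KO and 49 of 55 WT cells, and members per cell were 0.538 times the WT number (0.752 and 0.5 by date). The mucin Muc4 was found in 1 KO and 11 WT cells, the gut hormone Cck in 2 and 8, and secretin (Sct) in 4 and 12. Share and level parted in the meprin protease subunit Mep1a, which was found in 8 KO and 23 WT cells but had a summed level of 103.3 CPM in KO and 70.1 CPM in WT, with 47.6% of its KO counts in 1 cell. The bile acid carrier Fabp6 was found in 17 KO and 20 WT cells. Zg16, a goblet cell lectin, was found in 0 KO and 7 WT cells, all 7 sorted on the first date, and nothing can be compared on the second.

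The kallikreins, secreted serine proteases whose genes lie side by side, differed most among the 14 lists in members per cell. At least 1 of 26 was found in 13 of 44 KO cells (29.5%, 16.8 to 45.2%) and 36 of 55 WT cells (65.5%, 51.4 to 77.8%). No KO cell had 2 or more at once (0 of 44, which allows up to 6.82% by the same floor), while 21 WT cells did and 1 WT cell had 8. Members per cell were 0.171 times the WT number, 0.0699 on the first and 0.197 on the second date, and 0.101 without leukocyte-marked cells. Klk1 (chromosome 7, 44225360 to 44229618, plus strand), the tissue kallikrein that releases kinins, was found in 0 KO and 8 WT cells, with 3 of these WT cells on the first and 5 on the second date. Klk7, a protease of skin shedding, was found in 5 KO and 19 WT cells, Klk4 in 5 and 7, Klk5 in 0 and 8, and Klk1b8 in 0 and 8. The 22 members that the annotation places lie within 539 kb of chromosome 7, and the Klk1b copies are close enough in sequence that reads may have been shared among them, so members counted together in a cell are not independent.

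Products of salivary, lacrimal and airway glands differed in direction from gene to gene. At least 1 of 44 was found in 42 of 44 KO and 54 of 55 WT cells, and members per cell were 0.712 times the WT number (0.445 and 0.748 by date). Lactoperoxidase (Lpo) was found in 31 of 44 KO and 33 of 55 WT cells. The whey acidic protein family member Wfdc18 was found in 33 KO cells (75.0%, 59.7 to 86.8%) and 24 WT cells (43.6%, 30.3 to 57.7%), at 1613 CPM in KO and 225 CPM in WT, with 38.8% of its KO counts in 1 cell. The surfactant protein Sftpd went the other way, with 11 KO and 27 WT cells. The iron-binding Lcn2, the odorant-binding Obp2a and the salivary Bpifa2 were found in 0 KO cells and in 7, 9 and 7 WT cells.

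In the epidermis list, members per cell were 0.540 times the WT number, but 0.933 on the first date and 0.440 on the second. The cornified envelope protein gene Sprr1a was found in 1 of 44 KO cells (2.27%, 0.0575 to 12%) and 21 of 55 WT cells (38.2%, 25.4 to 52.3%), of which 1 KO cell and 3 WT cells were of the first date. The keratin gene Krt16 was found in 2 KO and 13 WT cells and Krtdap, a keratinocyte differentiation gene, in 7 and 16, all of the second date. The desmosomal cadherin Dsg1a was found in 28 KO and 30 WT cells. The transglutaminase Tgm3 was found in 7 KO and 0 WT cells, all 7 of the second date.

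Milk and muscle antigens that most cells make did not meet the mark of 2-fold in share. Csn2 was found in 41 of 44 KO cells (93.2%) and 52 of 55 WT cells (94.5%), a difference of -1.36 percentage points (-13.3 to 9.04). Its median level per cell was 2111 CPM in KO and 1262 CPM in WT. The alpha casein Csn1s1 was found in 0 KO and 5 WT cells, so no KO cell and 11 WT cells had 2 milk genes at once. The muscle actin-crosslinking gene Actn3 was found in 37 KO and 43 WT cells, and members of the muscle list per cell were 0.794 times the WT number. Without leukocyte-marked cells that muscle ratio was 0.926. Some muscle genes seen in few cells were not found in KO: the troponins Tnnt3 and Tnni2 and the myosin light chain Myl2 were each found in 0 KO and 6 WT cells. Of 11 muscle members compared by share, 4 were lower and 1 higher, against 16.6% and 12.8% of all genes. By level, 7 of 18 were lower, 4 of the 18 with 0 counts in KO, and 3 were higher, against 16.2% and 8.78% of all genes.

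Nerve products were also led by widely made members. Each thinned cell had at least 1 of the 38 members, and members per cell were 0.842 times the WT number (1.04 and 0.787 by date). The synaptic vesicle protein Syt1 was found in 42 KO and 49 WT cells and the neuropeptide gene Calcb in 40 and 49, while the myelin protein Mbp was found in 6 and 19. Of the 19 members compared by share, 6 were lower and 1 was higher in KO, against the 16.6% and 12.8% of all genes.

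Sperm genes were mixed and male tract genes were mostly lower. Members of the sperm list per cell were 0.544 times the WT number, 1.31 on the first date and 0.381 on the second, and at least 1 was found in 18 of 44 KO cells (40.9%, 26.3 to 56.8%) and 42 of 55 WT cells (76.4%, 63.0 to 86.8%). Odf2, a sperm tail and centriole protein, was found in 4 KO and 23 WT cells. Catsper3, a sperm ion channel subunit, was found in 5 KO and 0 WT cells. By share, 3 of 7 sperm members were lower and 1 higher, with a median log2 ratio of -0.76. By level, 3 members were lower and 3 higher of 9, with a median log2 ratio of 0.76. In the male tract list, members per cell were 0.516 times the WT number (0.514 and 0.692 by date), and 2 of 4 members were lower by share and 6 of 7 by level, with none higher. Pate4 was found in 17 KO and 16 WT cells, whereas Cst8, an epididymal cystatin, was found in 0 KO and 5 WT cells, all 5 of the first date. Eye genes were found in 5 of 44 KO and 20 of 55 WT cells, and 3 of 4 were lower by level. At least 1 endocrine gland gene was found in 10 KO and 13 WT cells, and 2 of 4 were lower and none higher by level. At least 1 kidney or bone gene was found in 13 KO and 18 WT cells, and 5 of 9 were lower and 2 higher by level. By share, 2 of 2 eye genes were lower. Of 2 endocrine gland genes 1 was lower and 1 higher, and of 2 kidney or bone genes 0 were lower and 1 higher. Over all genes, 16.6% were lower and 12.8% higher by share, and 16.2% and 8.78% by level.

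**Figure D3:**
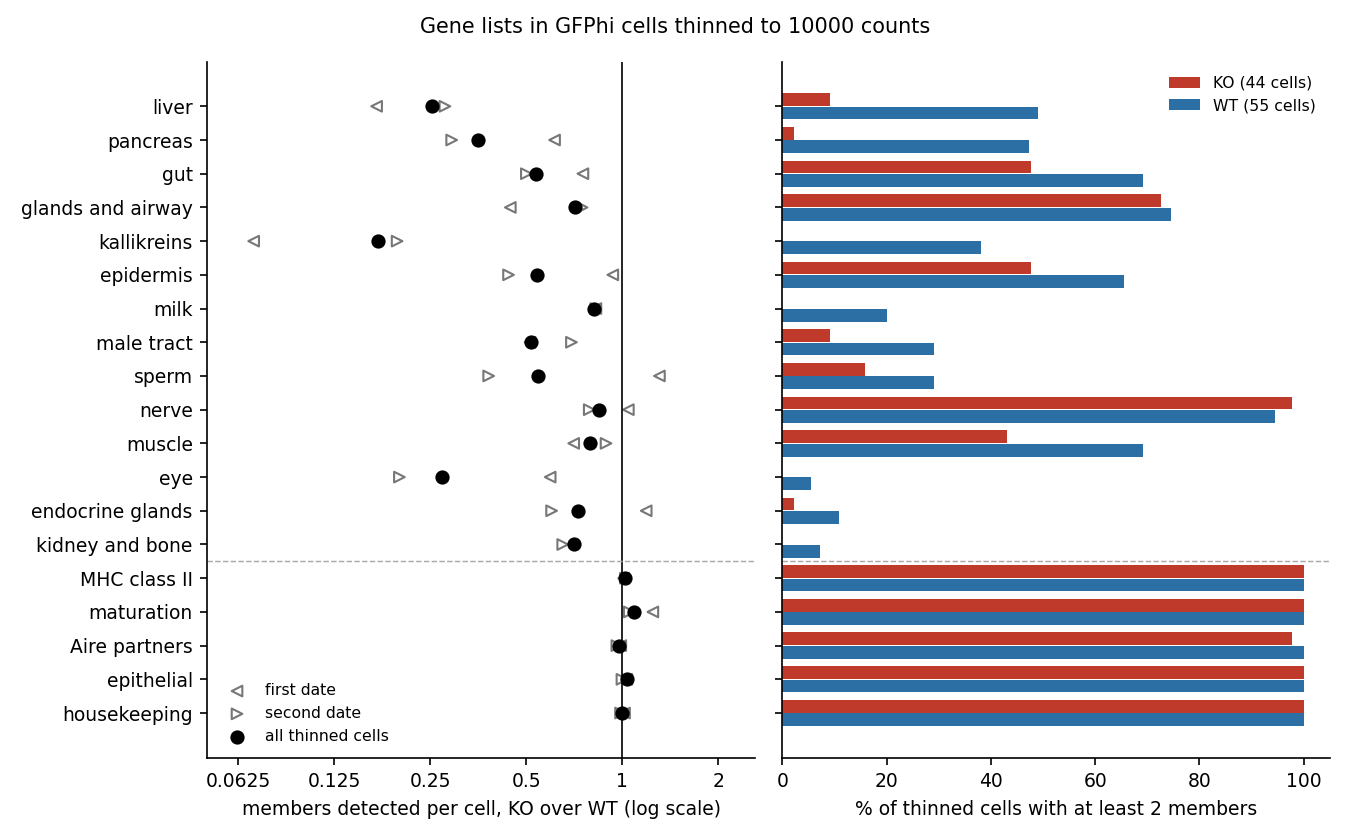
Left, members of each list detected per thinned cell as a ratio of KO over WT on a log scale, for all cells and by sort date (the first-date ratio of the kidney and bone list is 0 and is not drawn); right, share of cells with at least 2 members, KO above WT. Liver (0.252), pancreas (0.352), eye (0.272) and kallikrein (0.171) ratios lie farthest below 1, and the lists under the dashed line (MHC class II, maturation, Aire partners, epithelial, housekeeping) lie between 0.979 and 1.09.

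Where a KO cell had an antigen, the amount was compared as well. A detected antigen had a median of 2 counts per 10000 in both genotypes, over 683 detections in KO and 1448 in WT. Of these, 15.4% in KO and 14.4% in WT had 10 counts or more. Without Csn2, 11.2% of 642 detections in KO and 12.5% of 1396 in WT did. For antigens found in 10% or more of WT GFPlo cells, 30.9% of 447 detections in KO and 30.8% of 717 in WT were a single count. For antigens found in none of those WT GFPlo cells, 58.9% of 56 detections in KO and 41.8% of 282 in WT were a single count, and the highest had 17 counts in KO and 171 in WT. For the 43 antigens found in at least 3 cells of each genotype, the median log2 ratio was -0.26 for the share of cells and -0.26 for the counts per cell with the gene. Such antigens are by construction those that KO cells kept.

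Promoters of the antigens differed in make-up from those of other genes in ways the lists did not use. RefSeq promoter windows (250 bases before to 50 bases after the start, GRCm38.p6) were matched for 367 of 457 protein-coding antigens. A TATA motif (TATAAA or TATATA, which can overlap and were counted once per promoter) starting in the window from 45 to 16 bases before the start was present on the sense strand in 25.6% of antigen promoters, against 2.38% of the promoters of genes compared by level and 4.04% of all protein-coding promoters. On either strand the shares were 26.7%, 2.74% and 4.57%. The median number of CG pairs in the window was 3 for antigens, 20 for genes compared by level and 13 for all protein-coding promoters. The 100 bases before the start are shown for 2 antigens found in 0 KO cells (Ctrb1, Iapp), for Retnla (1 KO and 11 WT cells), for 2 antigens that KO cells kept (Reg3g, Csn2) and for Synm, which more KO cells made. Capitals mark TATA matches on the sense strand in that window.
Ctrb1 (chr8:111691011-111691110, minus): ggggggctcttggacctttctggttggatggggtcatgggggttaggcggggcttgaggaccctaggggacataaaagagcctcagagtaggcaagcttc
Iapp (chr6:142298325-142298424, plus): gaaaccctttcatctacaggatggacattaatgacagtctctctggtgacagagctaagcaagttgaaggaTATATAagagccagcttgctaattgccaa
Retnla (chr16:48842509-48842608, plus): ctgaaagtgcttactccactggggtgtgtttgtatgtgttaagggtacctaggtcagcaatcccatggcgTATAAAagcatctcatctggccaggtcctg
Reg3g (chr6:78468875-78468974, minus): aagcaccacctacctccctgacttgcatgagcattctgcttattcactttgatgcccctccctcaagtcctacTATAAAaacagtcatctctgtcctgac
Csn2 (chr5:87699426-87699525, minus): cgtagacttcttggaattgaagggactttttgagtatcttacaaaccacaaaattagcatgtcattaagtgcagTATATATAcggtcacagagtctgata
Synm (chr7:67759743-67759842, minus): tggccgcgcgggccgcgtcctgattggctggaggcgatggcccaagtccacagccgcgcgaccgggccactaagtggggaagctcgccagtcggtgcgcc
The motif is present before Iapp and Retnla, found in 0 and 1 KO cells, and before Reg3g and Csn2, which many KO cells had. These letters are not in that window of Ctrb1 or Synm, nor in that of Klk1, Mbl2 or Saa1, which were found in 0 or 1 KO cells. The window of Synm holds 33 CG pairs, against 1 in Ctrb1 and 2 in Csn2.

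Beyond the antigen lists, the genes with the largest differences in share were of varied function. The 15 lower and 12 higher genes named here were picked for that difference, and their intervals make no allowance for the picking. S100a8, a calcium-binding protein of neutrophils and stressed epithelium, was found in 12 of 44 KO cells (27.3%, 15 to 42.8%) and 36 of 55 WT cells (65.5%, 51.4 to 77.8%), and its level per cell reached 563 CPM in KO and 22487 CPM in WT. It was found in 0 of 8 KO and 13 of 19 WT cells on the first date, and without leukocyte-marked cells in 6 of 35 KO and 29 of 41 WT cells. Lyz1, a lysozyme of Paneth cells whose reads may be shared with Lyz2, was found in 11 KO and 33 WT cells. Plcg2, a phospholipase of receptor signalling, and Sptlc2, a subunit of the first enzyme of sphingolipid synthesis, were each found in 2 KO and 23 WT cells. The growth factor Igf1 was found in 7 KO and 26 WT cells and the joint lubricant Prg4 in 2 and 17.

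Not all of the lower genes were epithelial in character. The immunoglobulin light chain constant region Igkc was found in 9 KO and 29 WT cells, and without leukocyte-marked cells in 8 of 35 and 19 of 41. Markers of B and plasma cells summed to 302 CPM in KO and 6047 CPM in WT, at 0 to 2134 CPM per cell (median 218) in KO and 0 to 52543 CPM (median 392.3) in WT, and the whole leukocyte list to 2991 and 8982 CPM. Of the 10 B and plasma cell markers, 6 were at least 4-fold lower by level in KO, against 16.2% of all genes, and none was at 0 in KO. Cells with more counts of these markers, Xbp1 left out, than of the epithelial list (plasma-marked cells) numbered 0 of 48 in KO and 7 of 61 in WT. The part of such cells in the share of cells with Igkc was not tested. The other genes of this group, Mndal, Adam22, Cdk2ap2, Stard3nl, Ubl3, Atp6v0d1 and Mll5, were found in 3 to 9 KO cells and 18 to 26 WT cells.

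More KO than WT cells had the genes Lrrc28 (26 of 44 and 10 of 55), Foxn2, a forkhead transcription factor (24 and 9), and Prkca, the alpha isoform of protein kinase C (26 and 13). The receptor phosphatase Ptprz1, known from brain, was found in 16 KO cells (36.4%, 22.4 to 52.2%) and 1 WT cell (1.82%, 0.0460 to 9.72%). The tyrosine phosphatase Ptpn14 was found in 19 KO and 3 WT cells, the death receptor Tnfrsf10b in 16 and 3, and Srl, a calcium-binding protein of muscle, in 16 and 3. Cdca7l, a relative of the Myc-regulated gene Cdca7, was found in 14 KO and 1 WT cells. The others, Pdik1l, Bicd1, Cdc123 and Adcy1, were found in 19 to 20 KO cells and 6 to 8 WT cells. Synm (chromosome 7, 67730160 to 67759742, minus strand), an intermediate filament gene of muscle, was found in 8 KO cells (18.2%, 8.19 to 32.7%), 4 on each date, and in 1 WT cell (1.82%). Its level per cell ran from 0 to 4381 CPM in KO and from 0 to 96.7 CPM in WT, with a median of 0 in each.

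A higher summed level did not always mean more cells. The acetylcholine receptor subunit Chrna3 was at 301 CPM in KO and 8.36 CPM in WT, but it was found in 6 KO and 9 WT cells, and 41.3% of its KO counts lay in 1 cell. Dnmt3l, a cofactor of DNA methylation, was at 1369 CPM in KO and 148 CPM in WT. It was also found in a larger share of KO cells, 32 of 44 beside 27 of 55 WT cells, short of the 2-fold mark. Over the 10957 genes that could be compared both ways, 818 were lower by share and by level, which is 45.4% of those lower by share and 73.2% of those lower by level. For higher genes the overlap was 457, or 32.6% and 73.2%.

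**Figure D4:**
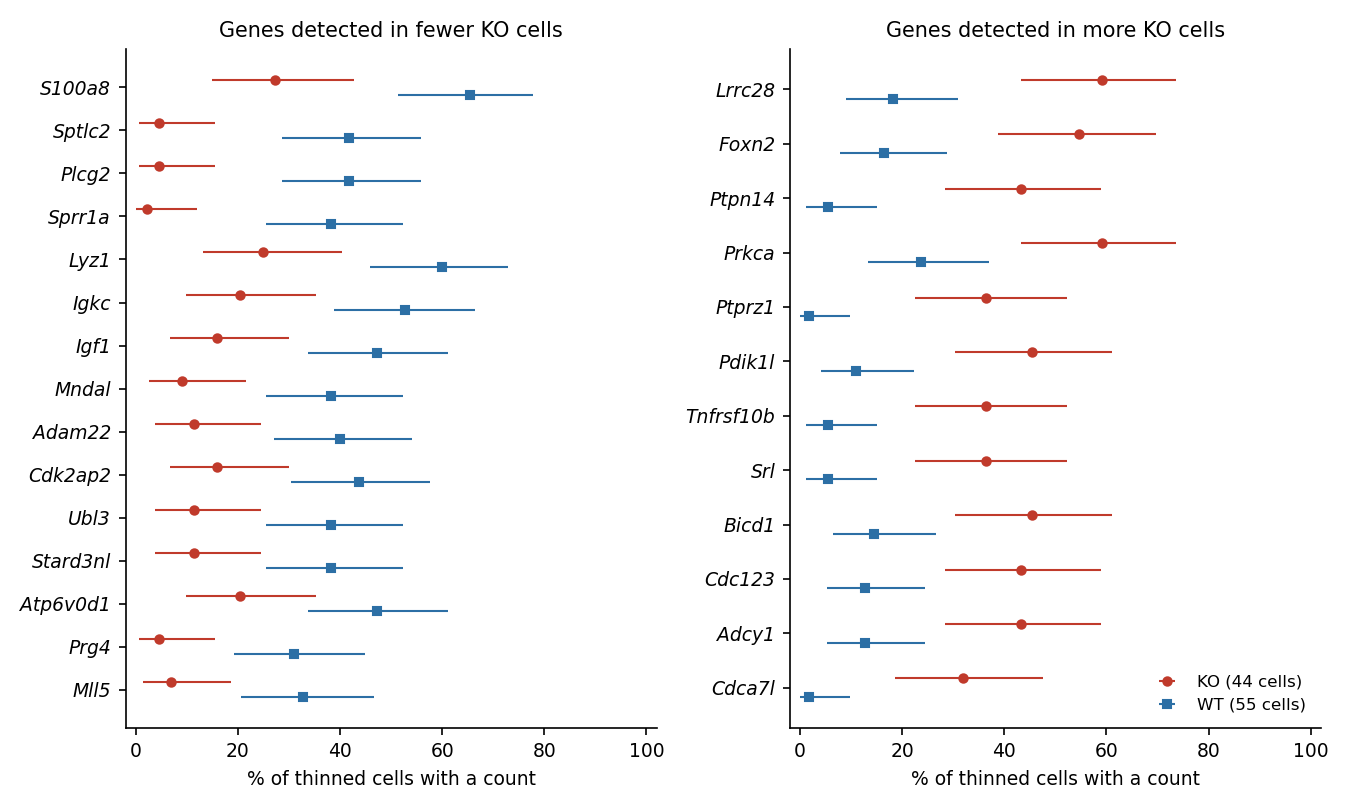
Share of thinned cells with a count for the 15 genes picked for the largest lower (left) and the 12 for the largest higher (right) share in KO; red circles are KO (44 cells), blue squares are WT (55 cells), and bars are exact binomial 95% intervals. S100a8 lies at 27.3% of KO and 65.5% of WT cells and Lrrc28 at 59.1% and 18.2%; the genes were chosen for these gaps.

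Genes of antigen presentation and of medullary identity mostly did not meet the mark of 2-fold. Of 14 MHC class II genes and 19 housekeeping genes compared by share, none met it, and members per cell were 1.02 and 1.0 times the WT number. Such abundant genes can hardly meet a mark on shares. By level, the MHC class II list summed to 30833 CPM in KO and 24014 CPM in WT, with a median log2 ratio of 0.54 and no member past 4-fold, and the median MHCII stain was 78673 in KO and 62459 in WT cells in arbitrary units. Of 16 maturation genes 3 were higher, a share near the 12.8% of all genes: the costimulatory ligands Cd80 (7 KO and 3 WT cells) and Cd86 (8 and 5), and the inhibitory ligand Pdcd1lg2 (12 and 6). Fezf2, another regulator of tissue antigens in these cells, was found in 40 of 44 KO and 47 of 55 WT cells, a difference of 5.45 percentage points (-8.49 to 18.3). Of 29 genes of proteins reported to work with Aire, 4 were lower in KO by share and none higher, where 16.6% and 12.8% of all genes were. The lower ones, no larger a share than among all genes, were Chd4, a nucleosome remodeller (9 KO and 25 WT cells), the ADP-ribosyl transferase Parp1 (7 and 18), the kinase Hipk2 (4 and 11) and Daxx, a histone chaperone (1 and 10). By level, 1 of 29 was lower and 1 higher. That list summed to 4111 CPM in KO and 2707 CPM in WT, with medians per cell of 2729 and 2595 CPM.

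Markers of other cell types that the sort could hold were present, the leukocyte list at up to 8593 CPM in a KO cell and 57586 CPM in a WT cell. The epithelial list summed to 6116 CPM in KO and 4422 CPM in WT, beside the leukocyte sums given above. The leukocyte phosphatase Ptprc, the protein the CD45 gate selects against, was found in 3 KO and 6 WT cells. Of 5 fibroblast and endothelial markers compared by share, 2 were higher and 0 lower in KO, against 12.8% and 16.6% of all genes. The higher ones were Dcn, a collagen-binding proteoglycan of fibroblasts (16 KO and 4 WT cells), and Acta2, smooth muscle actin (5 and 3). Another 2 of the 5 had a smaller share in KO than in WT without meeting the mark. By level, 3 of 12 were lower and 0 higher, against 16.2% and 8.78% of all genes. Members of that list per cell were 1.61 times the WT number (2.71 and 1.33 by date, 2.16 without leukocyte-marked cells). The list summed to 170 CPM in KO and 342 CPM in WT. Thymocyte markers per cell were 1.33 times, dendritic cell and macrophage markers 0.796 times, and cortical epithelial markers 0.992 times the WT number. The part of such cells in the antigen differences was not tested.

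In GFPlo cells from mice of the same strain, age and sex, with 48 KO and 32 WT thinned cells, antigens per cell had a median of 12.5 in KO and 21.5 in WT. All genes per cell were also fewer there, with medians of 2456.5 in KO and 2724.5 in WT. By share, 36 of 87 antigens were lower and 8 higher, against 16.8% and 15.5% of all genes. Values of Ctrb1 in GFPlo were 0 KO cells and 1 WT cell, of Klk1 1 and 6, of Apoc3 4 and 4, and of Synm 3 and 0. Whether the difference between genotypes itself differed between the gates was not tested.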

How the data were processed

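The authors deposited raw counts (whole numbers, not normalized) for each gene in each cell. HTSeq, SAMtools 0.1.19, Picard 1.79, TopHat2 and TopHat are named, with the build mm10, per the submitters' processing notes, which give no role or order. It is not stated whether molecular identifiers were collapsed, and 40 cells have more counts than identifiers recorded for them, so counts were treated as tags. Intervals and floors therefore cover counting error only. The deposited metadata give flow cytometer intensity in arbitrary units and a sort date, per the file headers. All 38406 genes were used, with no filter on cells but depth, doublets were not called, and the number of value columns that had no sample was 0. No cells had identical counts (0 pairs).

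Cells were thinned without replacement to 10000 counts (seed 1). Shares were compared for genes in at least 5 thinned cells of the pair (0.5 cell added in log2 ratios), with a mark of 2-fold. Levels (CPM) divide a gene's summed count by the group's total, times 1000000, and were compared from 20 counts in the pair upward (0.5 count added), with a mark of 4-fold, and carry exact conditional binomial 95% intervals. Intervals of differences in share are Newcombe intervals. A count of 0 was given a floor of 3 counts or cells. Each genotype counted as 1 sample, because the labels name no animal, so no p-value was computed. Leaving out each library pool, other depths, minimums, primer kinds, sort dates and TMM scaling with edgeR 4.0.16 in R 4.3.3 were alternatives, and leaving out plasma-marked cells was added after the data were seen, as was a split of antigens by their share in WT GFPlo cells.

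Named genes were, leaving out gene models, pseudogenes and ribosomal protein genes, the 15 lower and 12 higher genes with the largest difference in share among those past both marks, of like direction by date and with at most 50% of counts in 1 cell; the 5 most detected members of each of 27 lists; and 16 genes named outright. List members named beyond these were chosen after their values were seen, as were the comparisons of all list members that are given as counts. The cells, genes and lists were chosen with earlier results of these data known. Gene positions are from GENCODE M21 and promoters from RefSeq GRCm38.p6. The scripts were tested on simulated data and used matplotlib 3.10.9, scipy 1.17.1, pandas 2.3.3, numpy 2.4.6 and Python 3.11.15.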

Additional observations from a re-analysis of the deposited data

How the results depend on the processing

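The antigen ratios kept their direction under the alternatives run. The difference in genes per cell did not: it was 5.5 over all thinned cells, -11 with deeper thinning, -151 on the second date, -184.5 with umi primers, and -44.5 to 71 when 1 pool was left out. The difference in share of Aire was -9.09 percentage points over both dates and 5.26 on the first date, that of Chrna3 -2.73 and 3.95, and with ls primers that of Epcam was 4.99 in place of -5.0 and that of Csn2 2.33 in place of -1.36; the cause was not tested. Without thinning, the difference in the median number of genes per cell, KO minus WT, was 364.5 in place of 5.5, and the ratio of antigens per cell was 0.694 in place of 0.590. On the first sort date alone, with 8 KO and 19 WT thinned cells, that ratio was 0.679, the median log2 share ratio of antigens was -0.36 in place of -0.94, and 1046 genes were lower and 846 higher by share, in place of 1826 and 1417. With a minimum of 10 thinned cells these values were -0.46, 854 and 720. With umi primers alone, 936 genes were lower and 626 higher by share. Without a count minimum, the median log2 level ratio of antigens was -2.60 in place of -4.22, and 4918 genes were lower and 2873 higher by level, in place of 2196 and 1191.

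Leaving out each of the 12 pools in turn gave ratios of antigens per cell from 0.571 to 0.604, log2 share ratios from -1.10 to -0.82 and log2 level ratios from -4.38 to -4.06. Without leukocyte-marked cells these were 0.586, -0.63 and -3.47, and 1388 genes were lower and 1407 higher by share; without plasma-marked cells 0.576, -0.86 and -4.30. Among the genes ranked or named outright, the difference in share on the first date lay outside its interval over both dates in 11 and within it in 31. No paired analysis was possible because a replicate number only names a cell; within pools and dates the cells were set side by side with no test. With 44 KO cells, a gene with 0 counts may still have a count in up to 6.82% of such cells at this depth, which sets no limit on cells that make it, and differences between animals cannot be told apart from those between genotypes.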

Other observations

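Genes at least 4-fold lower by level in KO were set beside their neighbours. Of 2033 such genes with a known position, 24.5% had another lower gene within 100 kb, against 17.9% of all 12658 placed genes, and 22.6% did when the antigens of the lists were left out. For genes at least 4-fold higher in KO the shares were 11.1% and 9.99%. The shares are descriptions, and neighbouring genes can share reads.

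The transcript of the reporter itself was found in 47 of 48 KO cells and 59 of 61 WT cells. Its summed level was 4566 CPM in KO and 2682 in WT, at 1363 and 1489 on the first sort date and 5829 and 3287 on the second.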
